A study of Homo sapiens with 3 samples.

Results

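The genes described here are FABP1, FABP5, SCP2, DBI and MTTP, which encode proteins that carry fatty acids, acyl-CoA, sterols or triglyceride inside the cell. They are 5 of the 21572 gene symbols in the deposited table, taken by their symbols, and the group was chosen by the FPKM of FABP1, which lay below the control in both FTO knockdown lines. The levels of FABP1 are therefore a description and carry no test. RNA was sequenced from 3 cultures of the human hepatoma line Hep-G2. The sh#7 and sh#2 lines carried different short hairpin RNAs (TRCN0000246247 and TRCN0000255402) against FTO, an RNA demethylase of N6-methyladenosine, and the control line carried the hairpin SHC002, described in the series design as a scramble. All 3 cultures were at passage 21, each gave 1 library, and the labels do not say whether a line is a single clone. With 1 library per line there is no replicate check, no p-value can be given, and an effect of FTO cannot be told apart from an effect of a line. FTO itself was at 2.55 FPKM in sh#7, 5.29 FPKM in sh#2 and 9.02 FPKM in the control, which is 28.2% and 58.6% of the control level and has the order of knockdown efficiency given in the design. The shortest annotated transcript of FTO is so short that a set minimum length was used in its place. On that minimum, not on a transcript's own length, FTO rests on an estimated 12 fragments in sh#7, 25 in sh#2 and 42 in the control. These are low estimates, since the same FPKM on a longer transcript means more fragments and narrower intervals. On these low estimates the 95% counting intervals are 13.5% to 54.7% of the control in sh#7 and 34.2% to 98.4% in sh#2. For sh#7 as a share of sh#2 the interval is 22.1% to 99.6%. FPKM counts fragments relative to transcript length and library total, which puts genes and libraries on a common scale. That scale does not correct for differences in RNA make-up between libraries. Some comparisons between libraries below change with median-of-ratios or upper-quartile scaling, and they hold as deposited only.

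Free fatty acids, their CoA esters and sterols are poorly soluble in water, and a hepatocyte moves them through the cytosol bound to small proteins. FABP1, the liver fatty acid binding protein, holds long-chain fatty acids in a beta barrel and is one of the most abundant cytosolic proteins of the normal hepatocyte. DBI, the acyl-CoA binding protein, holds acyl-CoA esters, and SCP2, sterol carrier protein 2, comes from a gene that also encodes a peroxisomal thiolase. MTTP works in the lumen of the endoplasmic reticulum, where it loads triglyceride onto apolipoprotein B as a lipoprotein particle forms. FABP5 is the epidermal member of the fatty acid binding protein family and is also made in many other tissues.

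FABP1 and MTTP were the members with a difference past 2-fold, and their promoters are shown because both genes are known targets of nuclear receptors of the liver. The windows hold 250 bases before and 50 bases after an annotated RefSeq start on GRCh38.p14. Of the 5 members, 4 have such a window. The FABP1 window is chr2:88128013-88128312 on the minus strand. For MTTP the window is that of the downstream of its annotated starts, chr4:99574574-99574873 on the plus strand. Both are written in the direction of transcription, and capitals mark the motif matches described next.
FABP1: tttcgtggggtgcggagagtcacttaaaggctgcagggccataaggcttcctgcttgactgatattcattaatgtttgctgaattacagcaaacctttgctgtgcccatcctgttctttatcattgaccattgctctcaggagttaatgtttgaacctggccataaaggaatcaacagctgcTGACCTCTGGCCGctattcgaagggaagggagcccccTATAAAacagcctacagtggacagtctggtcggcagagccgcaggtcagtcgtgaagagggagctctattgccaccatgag
MTTP: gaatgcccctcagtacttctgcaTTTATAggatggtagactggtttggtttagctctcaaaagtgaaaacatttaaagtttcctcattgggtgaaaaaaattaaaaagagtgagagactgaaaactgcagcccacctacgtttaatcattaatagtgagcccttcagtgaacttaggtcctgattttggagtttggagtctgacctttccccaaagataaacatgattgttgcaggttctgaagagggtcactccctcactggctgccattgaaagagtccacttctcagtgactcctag

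In each window 2 motifs were sought on both strands. They were the direct repeat 1 of nuclear receptors such as PPARA and HNF4A (AGGTCA, any base, AGGTCA, with up to 2 mismatches) and the TATA box (TATAAA, exact). The FABP1 window held a direct repeat 1 match with 2 mismatches on the opposite strand, 68 to 56 bases before the start, a stretch in which a PPAR element is known from the rat gene. It also held a TATA box 31 to 26 bases before the start. The MTTP window held the TATA box letters on the opposite strand, 227 to 222 bases before the start. Its nearest stretch to the direct repeat 1 had 3 mismatches, past the 2 allowed, so no match was called at this cutoff. That does not show that such a site is absent. No match overlapped another motif. Of 35116 such windows over all genes, 2.97% held the direct repeat 1 at this stringency and 11.5% held the TATA box. These matches describe letters and do not show binding.

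FABP1 was measured at 208 FPKM in sh#7, 2415 FPKM in sh#2 and 6167 FPKM in the control. The levels were well apart: sh#7 held far less FABP1 mRNA than sh#2, and sh#2 less than the control. The sh#7 level was 3.37% of the control (95% interval 3.26 to 3.49), the sh#2 level was 39.2% of the control (38.7 to 39.6), and the sh#7 level was 8.61% of that in sh#2 (8.32 to 8.91). These intervals rest on fragment numbers estimated from the shortest annotated transcript and cover counting error only. The estimates were 3513 fragments in sh#7, 41865 in sh#2 and 104974 in the control, so depth does not limit the value. FABP1 was thus 29.7-fold lower in sh#7 and 2.55-fold lower in sh#2 than in the control.

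**Figure D1:**
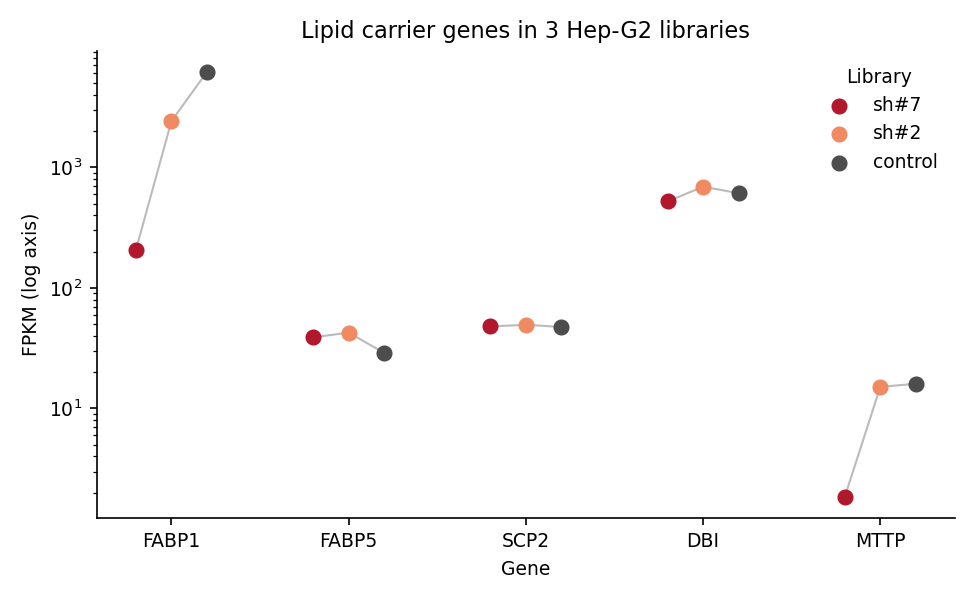
Levels of the 5 lipid carrier genes in FPKM on a log axis, with 1 point per library in the order sh#7, sh#2 and control and a grey line joining the points of a gene. FABP1 spans 208 to 6167 FPKM and MTTP 1.86 to 16.0 FPKM, while FABP5, SCP2 and DBI stay within 2-fold.

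By rank, FABP1 was number 404 of all genes in sh#7, number 21 in sh#2 and number 2 in the control, where APOA2 was the only gene above it, at 6168 FPKM. It took 0.0392% of the summed FPKM in sh#7, 0.434% in sh#2 and 1.09% in the control. On the scale of log2(FPKM + 1), used for all differences, the FABP1 difference from the control was -4.88 in sh#7, and it was -1.35 in sh#2. Over the 11069 genes that averaged at least 1 FPKM, the difference of FABP1 was the 5th lowest in sh#7 and the 35th lowest in sh#2. The knockdown lines share their control library, so these places are not independent of each other.

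The libraries carried the defining markers of hepatocytes, and those markers also differed between lines. Of 11 hepatocyte markers, 5 were past 2-fold lower in sh#7 and 2 in sh#2, which is 45.5% and 18.2%, against 2.48% and 0.723% of all genes compared, and their summed level was 12322 FPKM in sh#7, 20587 FPKM in sh#2 and 26778 FPKM in the control. ALB was at 1947 FPKM in sh#7, 5501 FPKM in sh#2 and 5468 FPKM in the control. Their part in the FABP1 level, and in that of MTTP, was not tested, and in these bulk libraries fewer cells of a type and less RNA per cell cannot be told apart. The enterocyte is the other cell type known for FABP1 and MTTP. Of its 10 markers, SI and CDX1 are listed at 0 in all 3 libraries, and the summed level of 132 FPKM in sh#7, 135 FPKM in sh#2 and 125 FPKM in the control was mostly VIL1, at 129, 131 and 118 FPKM. APOA4, a marker shared with liver, was at 1.77 FPKM in sh#7, 3.19 FPKM in sh#2 and 6.19 FPKM in the control. Of 6 adipocyte markers, FABP4, ADIPOQ, LEP and LPL are listed at 0 in all 3 libraries, and the sum of 1.94 FPKM in sh#7, 0.877 FPKM in sh#2 and 2.53 FPKM in the control was mostly CIDEC, at 1.91, 0.800 and 2.47 FPKM. Of 7 keratinocyte markers, the cell type FABP5 is named for, 4 are listed at 0, and KRT10 and SFN account for nearly all of a summed 89.6 FPKM in sh#7, 83.0 FPKM in sh#2 and 70.2 FPKM in the control. Of 8 blood cell markers 3 are listed at 0, and their sum of 322 FPKM in sh#7, 1354 FPKM in sh#2 and 3258 FPKM in the control was mostly LYZ, the lysozyme gene, at 297, 1321 and 3216 FPKM. The part of these markers in the FABP1 level was not tested. Summed muscle markers were at 21.0, 7.29 and 5.42 FPKM, glial markers at 4.41, 2.04 and 4.33 FPKM and fibroblast markers at 52.7, 35.4 and 43.9 FPKM in sh#7, sh#2 and the control. In the same order, the muscle sum was mostly ACTA1, at 8.78, 5.22 and 2.92 FPKM, and CKM, at 11.2, 1.01 and 1.21 FPKM. The glial sum was mostly MBP, at 4.19, 1.82 and 4.13 FPKM. The fibroblast sum was mostly ACTA2, at 51.5, 33.6 and 40.2 FPKM, while COL1A2, COL3A1, DCN, LUM and THY1 are listed at 0 in all 3 libraries.

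MTTP was at 1.86 FPKM in sh#7, 15.1 FPKM in sh#2 and 16.0 FPKM in the control. Here sh#7 stood alone and sh#2 lay close to the control. The sh#7 level was 11.6% of the control (95% interval 9.13 to 14.6) and 12.3% of that in sh#2 (9.68 to 15.5). In sh#2 the deposited level was 94.2% of the control, with a counting interval of 84.8 to 104.7 that includes no difference. The differences from the control were -2.57 in sh#7, the 34th lowest of all genes compared, and -0.08 in sh#2. The sh#2 difference was -0.19 with median-of-ratios scaling and -0.18 with upper-quartile scaling, for which no counting interval was calculated. MTTP had the lowest level of the 5 members in every library, and the estimate behind its sh#7 value was 83 fragments, against 692 in sh#2 and 721 in the control.

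DBI was at 521 FPKM in sh#7, 689.7 FPKM in sh#2 and 610.2 FPKM in the control. It lay below the control in sh#7, at 85.4% (83.0 to 87.9), and above it in sh#2, at 113% (110.1 to 116.1). Both differences, -0.23 and 0.18, are small beside those of FABP1 and MTTP, and without replicate cultures they cannot be set against the spread between cultures. Their sizes depend on the scaling. With median-of-ratios and upper-quartile scaling they were -0.40 and -0.34 in sh#7 and 0.058 and 0.075 in sh#2. The scaled values lie outside the counting intervals of the deposited differences, and in sh#2 they are nearer to the control.

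SCP2 was at 47.8 FPKM in sh#7, 49.4 FPKM in sh#2 and 47.3 FPKM in the control. It was 101% of the control in sh#7 (94.2 to 108.5) and 104% in sh#2 (97.4 to 112). As deposited, neither line thus differed from the control beyond counting error. The differences of 0.02 and 0.06 turn to -0.16 and -0.05 with median-of-ratios scaling and to -0.10 and -0.04 with upper-quartile scaling. The scaled values lie below the counting intervals of the deposited differences, so the agreement with the control depends on the scaling.

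FABP5 was at 38.9 FPKM in sh#7, 42.5 FPKM in sh#2 and 28.9 FPKM in the control. It was the member with the highest level relative to the control in both lines, at 135% (123 to 147) in sh#7 and 147% (135 to 160.4) in sh#2, with differences of 0.42 and 0.54. Among all genes compared, these differences were at percentile 79.4 in sh#7 and 96.5 in sh#2. FABP5 has processed pseudogenes, of which FABP5P3 is listed at 0 in all 3 libraries, and how the authors' counting divided reads among near-identical copies is not known here.

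The median difference of all genes compared was 0.16 for sh#7 against the control and 0.10 for sh#2 against the control. Relative to these medians, the sh#7 differences were -5.04 for FABP1, -2.73 for MTTP, -0.38 for DBI, -0.14 for SCP2 and 0.26 for FABP5. Relative to them, the sh#2 differences were -1.46 for FABP1, -0.18 for MTTP, 0.07 for DBI, -0.04 for SCP2 and 0.44 for FABP5. In sh#7, 2 of the 5 members were past 2-fold lower and 0 were past 2-fold higher, where 2.48% of all genes compared were lower and 2.35% higher, 4.83% in all. In sh#2, 1 member was lower and 0 were higher, against 0.723% and 0.506% of all genes, 1.23% in all. In sh#7 against sh#2, FABP1 and MTTP were lower, with differences of -3.53 and -2.49, and 0 members were higher, against 1.52% and 1.45% of all genes, 2.97% in all. FABP1 was the only member past 2-fold lower in both lines, as were 0.524% of all genes. All 5 members passed the filter on low values. The members were chosen with these levels in view, so the shares of all genes are given for scale and nothing is read from the comparison. With median-of-ratios scaling 194 genes were higher and 373 lower in sh#7, against 260 and 275 as deposited, and in sh#2 they were 47 and 106, against 56 and 80.

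The make-up of the carriers differed between the libraries. In sh#7 the order of levels was DBI, FABP1, SCP2, FABP5 and MTTP, while in sh#2 and in the control FABP1 was first and DBI second, with the same order after them. FABP1 made up 25.4% of the summed FPKM of the 5 members in sh#7, 75.2% in sh#2 and 89.8% in the control. There were 0.399 units of FABP1 FPKM for each unit of DBI in sh#7, 3.50 in sh#2 and 10.1 in the control. With 1 library per line, no spread between cultures is known against which the order of neighbours such as SCP2 and FABP5 could be set.

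Fatty acid and retinoid binding proteins of the cytosol form 1 family with FABP1. Of 15 family genes, 5 had a mean of at least 1 FPKM, and no fatty acid binding protein other than FABP1 and FABP5 was above 1.2 FPKM in any library. FABP3, the heart form, was at 0.893 FPKM in sh#7, 0.966 FPKM in sh#2 and 1.18 FPKM in the control. The intestinal form FABP2 was at 0.272, 0.348 and 0.303 FPKM in sh#7, sh#2 and the control, and the ileal bile acid binding protein FABP6 was at 0.296, 0.112 and 0.0582 FPKM. FABP4, FABP7, FABP9, FABP12 and PMP2 are listed at 0 in all 3 libraries. FABP1 thus made up 83.7% of the summed FPKM of the 10 fatty acid binding protein genes in sh#7, 98.2% in sh#2 and 99.5% in the control. It was 5.35 times the FABP5 level in sh#7, 56.8 times in sh#2 and 213 times in the control. The summed level of these 10 genes was 248 FPKM in sh#7, 2459 FPKM in sh#2 and 6198 FPKM in the control.

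Among the retinoid binding members, RBP5 was at 21.6 FPKM in sh#7, 14.1 FPKM in sh#2 and 16.2 FPKM in the control, and RBP7 was at 4.26, 2.25 and 3.52 FPKM. CRABP2, which binds retinoic acid, was at 0.406, 0.753 and 0.535 FPKM, while RBP2 and CRABP1 stayed below 0.1 FPKM. FABP1 was the only family gene past 2-fold lower in either line, and the family median, FABP1 included, was 0.22 in sh#7 and -0.19 in sh#2, against 0.16 and 0.10 over all genes.

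**Figure D2:**
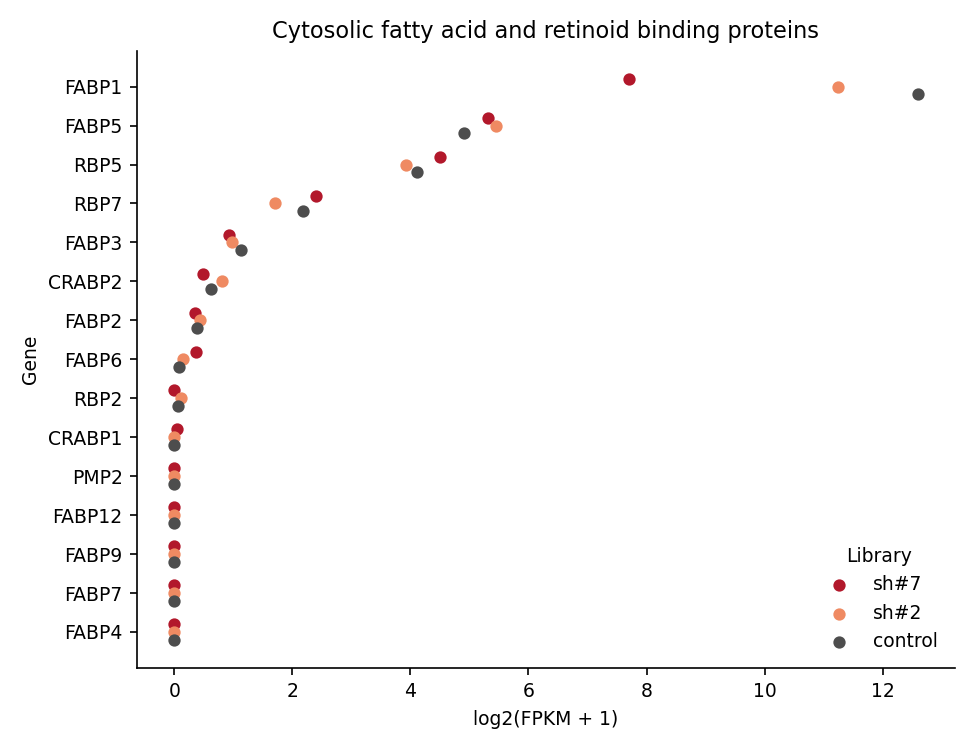
Levels of 15 cytosolic fatty acid and retinoid binding protein genes as log2(FPKM + 1), ordered by mean level, with 1 point per library (sh#7 above sh#2 above control). FABP1 is the highest gene in all 3 libraries and the 1 whose points lie far apart; 5 genes are listed at 0 throughout.

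The compared relatives of DBI and SCP2 stayed within 2-fold of the control in both lines on this scale, with HSDL2 and ACOX2 near it in sh#7. Of all genes compared, 4.83% passed 2-fold in sh#7 and 1.23% in sh#2. In lists this short a count of 0 is near those shares, and nothing is read from it. All 7 genes with an acyl-CoA binding domain were compared and 0 passed 2-fold, with a median of -0.18 in sh#7 and -0.11 in sh#2. Besides DBI, ECI2, a peroxisomal enoyl-CoA isomerase, was at 98.7 FPKM in sh#7, 158 FPKM in sh#2 and 155 FPKM in the control, and the Golgi protein ACBD3 was at 28.2, 27.9 and 32.0 FPKM. Of 5 genes with an SCP2 domain, 4 were compared and 0 passed 2-fold, with medians of -0.13 and 0.08; SCP2D1 was not analysed here. HSD17B4, the peroxisomal multifunctional enzyme, was at 110.1 FPKM in sh#7, 148 FPKM in sh#2 and 128 FPKM in the control, and HSDL2 was at 22.0, 35.3 and 41.2 FPKM. The HSDL2 difference of -0.88 in sh#7 passed 2-fold, at -1.05, with median-of-ratios scaling. Of the 9 compared genes of peroxisomal side-chain oxidation and import, where the SCP2 thiolase acts, 0 passed 2-fold, with medians of -0.17 and 0.03. BAAT, of the same list, was not compared because its mean of 0.784 FPKM is below the filter. It was at 0.201 FPKM in sh#7, 0.639 FPKM in sh#2 and 1.51 FPKM in the control, a difference of -1.06 in sh#7. Of the compared genes the closest to 2-fold was ACOX2, a branched-chain acyl-CoA oxidase, at 4.13 FPKM in sh#7, 6.03 FPKM in sh#2 and 8.95 FPKM in the control. Its sh#7 difference of -0.96 passed 2-fold with a pseudocount of 0.1, at -1.10, with median-of-ratios scaling, at -1.11, and with upper-quartile scaling, at -1.06. ACAA1, the other peroxisomal thiolase, was at 76.9 FPKM in sh#7, 109 FPKM in sh#2 and 121 FPKM in the control; the transporter gene ABCD3 was at 73.6, 65.6 and 50.6 FPKM and EHHADH at 22.0, 15.1 and 15.3 FPKM.

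Among other lipid transfer proteins, 3 genes passed 2-fold in at least 1 line as deposited. Of 17 compared genes with START or GRAM domains or of related sterol and phospholipid transfer, STAR passed 2-fold in both lines and was higher, with 5.63 FPKM in sh#7, 4.25 FPKM in sh#2 and 1.16 FPKM in the control. STAR moves cholesterol into mitochondria in steroid-forming cells. TTPA, the liver transfer protein of vitamin E, was past 2-fold higher in sh#2 at 2.15 FPKM, against 0.422 FPKM in the control, and was at 0.568 FPKM in sh#7. The genes past 2-fold higher were thus 1 of 17 in sh#7, or 5.88%, against 2.35% of all genes, and 2 of 17 in sh#2, or 11.8%, against 0.506%. In the other direction, GRAMD1A was at 16.0 FPKM in sh#7, 16.7 FPKM in sh#2 and 29.4 FPKM in the control. Its differences were -0.84 in sh#7 and -0.78 in sh#2, and that in sh#7 passed 2-fold with median-of-ratios scaling, at -1.01. The abundant members were within 2-fold: STARD10 was at 129 FPKM in sh#7, 135 FPKM in sh#2 and 109.5 FPKM in the control, the lysosomal sterol carrier NPC2 at 108, 120.4 and 121 FPKM and STARD7 at 107, 97.0 and 80.1 FPKM. The median of these genes was 0.23 in sh#7, and 0.20 in sh#2. In the oxysterol binding protein family 1 of 9 compared genes passed 2-fold, OSBPL10, which was lower in sh#2 at 3.92 FPKM, against 9.24 FPKM in the control. That is 11.1% of the family lower in sh#2, against 0.723% of all genes, and rests on this 1 gene. In sh#7 OSBPL10 was at 4.41 FPKM, a difference of -0.92. It passed 2-fold with median-of-ratios scaling, at -1.07, and with upper-quartile scaling, at -1.02. The family median was 0.23 in sh#7, and 0.22 in sh#2. OSBP, the founding member, had 18.6 FPKM in sh#7, 16.0 FPKM in sh#2 and 16.8 FPKM in the control. OSBPL9 had 44.2, 45.4 and 38.9 FPKM, and OSBPL2 had 21.4, 20.2 and 21.0 FPKM.

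The partners of MTTP were nearer to the control in sh#7 than MTTP was. APOB, the lipoprotein scaffold that MTTP loads, was at 273 FPKM in sh#7, 354 FPKM in sh#2 and 337 FPKM in the control. P4HB, the protein disulfide isomerase that forms the small subunit of the MTTP complex, was at 1027 FPKM in sh#7, 1114 FPKM in sh#2 and 1456 FPKM in the control. There were 147 units of APOB FPKM for each unit of MTTP in sh#7, against 23.5 in sh#2 and 21.0 in the control. Of 19 compared genes of lipoprotein assembly and export, 0 passed 2-fold in either line, against 4.83% of all genes in sh#7 and 1.23% in sh#2. The closest was ACSL3, an acyl-CoA synthetase, at 54.0 FPKM in sh#7, 96.1 FPKM in sh#2 and 106.6 FPKM in the control. Its sh#7 difference of -0.97 passed 2-fold with median-of-ratios scaling, at -1.14, and with upper-quartile scaling, at -1.08. SURF4, a cargo receptor of the endoplasmic reticulum, was at 174 FPKM in sh#7, 195 FPKM in sh#2 and 230.1 FPKM in the control. The median over these genes was -0.29 in sh#7, and -0.017 in sh#2. None of the 7 compared genes of fatty acid uptake passed 2-fold in either line on the log2(FPKM + 1) scale, against the same shares of all genes. In lists this short a count of 0 is near those shares. CD36, a fatty acid translocase, was at 2.52 FPKM in sh#7, 2.92 FPKM in sh#2 and 1.13 FPKM in the control. Its differences were 0.73 in sh#7 and 0.88 in sh#2, and they passed 2-fold with a pseudocount of 0.1, at 1.09 and 1.30. By contrast GOT2 was at 85.4, 90.3 and 85.9 FPKM, and, of the fatty acid transport proteins, SLC27A2 at 12.5, 10.2 and 11.1 FPKM and SLC27A4 at 8.47, 9.46 and 8.67 FPKM in sh#7, sh#2 and the control. The median for uptake was -0.03 in sh#7, against -0.11 in sh#2.

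Regulators described at the FABP1 or MTTP promoters lay on both sides of the control. PPARA, the fatty acid receptor that activates FABP1, was at 3.98 FPKM in sh#7, 5.17 FPKM in sh#2 and 4.20 FPKM in the control. HNF4A, a central nuclear receptor of the hepatocyte, was at 81.3, 97.5 and 93.1 FPKM. Of 22 compared regulators, 2 were past 2-fold higher and 2 past 2-fold lower in sh#7, and 0 passed 2-fold in sh#2. The sh#7 calls were 18.2% of the list, against 4.83% of all genes, and in sh#2 1.23% of all genes passed 2-fold. Of the 22 regulators, 11 differed by more than 0.5 in sh#7 and 6 in sh#2. The higher genes were CEBPA, a transcription factor of liver and fat, at 121 FPKM in sh#7, 71.9 FPKM in sh#2 and 35.5 FPKM in the control, and NR2F2, an orphan nuclear receptor, at 31.9, 12.5 and 9.35 FPKM. The lower genes were NR0B2, a receptor that represses other nuclear receptors, at 11.4 FPKM in sh#7, 17.7 FPKM in sh#2 and 31.4 FPKM in the control, and PPARG, a relative of PPARA known from adipocytes, at 9.16, 15.2 and 20.5 FPKM. CEBPA in sh#2 lay just inside 2-fold, at a difference of 0.998, and just past it, at 1.02, with a pseudocount of 0.1. In sh#7, GATA6 at 0.97 and PPARGC1A at -0.84 also passed 2-fold with that pseudocount, at 1.14 and -1.03. Over the regulators the median was -0.10 in sh#7, against 0.13 in sh#2.

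Target genes of PPARA other than FABP1 lay on both sides of the control. Of 19 compared, 2 were past 2-fold higher and 3 past 2-fold lower in sh#7, and 1 was higher and 1 lower in sh#2, with list medians of -0.26 and -0.17. These calls were 26.3% of the list in sh#7, against 4.83% of all genes, and 10.5% in sh#2, against 1.23%. TXNIP, an inhibitor of thioredoxin, was lower in sh#7 at 6.47 FPKM and was at 20.8 FPKM in sh#2, against 37.5 FPKM in the control. PLIN2, which coats lipid droplets, was lower in sh#7 at 134 FPKM and was at 193 FPKM in sh#2, against 331 FPKM in the control. CREB3L3, a liver transcription factor of the endoplasmic reticulum, was lower in sh#7 at 3.10 FPKM and was at 7.30 FPKM in sh#2, against 8.94 FPKM in the control. CPT1A, which brings fatty acids into mitochondria, was higher in sh#7 at 14.3 FPKM and lower in sh#2 at 2.27 FPKM, against 6.54 FPKM in the control. Its sh#7 difference of 1.02 was inside 2-fold with median-of-ratios scaling, at 0.866, and with upper-quartile scaling, at 0.921. CIDEC, a low gene at 0.800 FPKM in sh#2 and 2.47 FPKM in the control, differed by -0.95 in sh#2. That passed 2-fold with a pseudocount of 0.1, at -1.51, and with median-of-ratios and upper-quartile scaling, at -1.03 and -1.01. ACSL1, which makes acyl-CoA, was higher in each line, with 26.5 FPKM in sh#7, 25.9 FPKM in sh#2 and 10.5 FPKM in the control. None of these targets was as far below the control as FABP1 in sh#7, where the lowest, TXNIP, differed by -2.37.

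**Figure D3:**
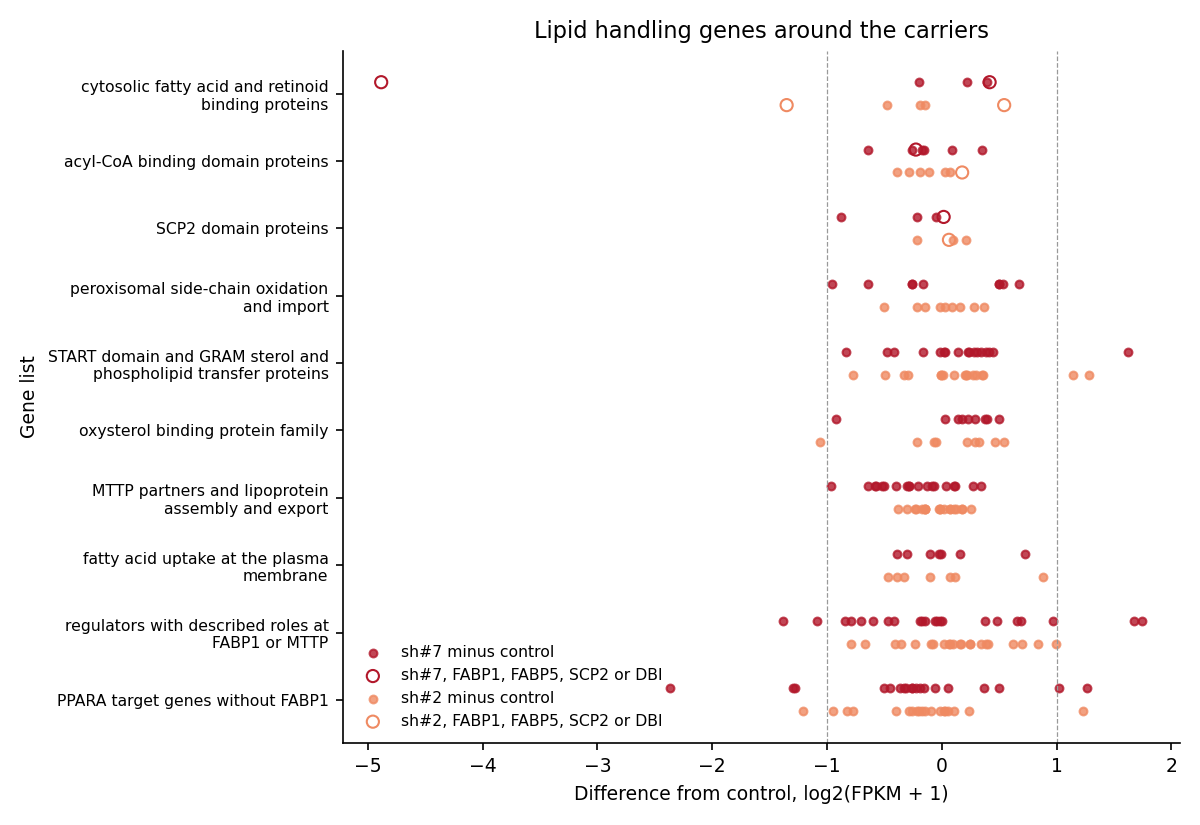
Differences from the control on the log2(FPKM + 1) scale for the compared genes of 10 lists around the carriers, with sh#7 above sh#2 in each list, open circles for FABP1, FABP5, SCP2 and DBI and dashed lines at 2-fold. Most points lie between the dashed lines, and FABP1 in sh#7, at -4.88, lies far from every other point.

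Over the 10 lists, 112 compared genes were not members. In sh#7, 5 of these were past 2-fold higher and 5 past 2-fold lower, 4.46% each way against 2.35% and 2.48% of all genes, and these became 4 and 10 with median-of-ratios scaling. In sh#2, 3 were higher and 2 lower, or 2.68% and 1.79%, against 0.506% and 0.723% of all genes. The lists were drawn up with earlier results of these data known.

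The pattern of FABP1 over the 3 libraries had few close neighbours. FABP1 was chosen for its low level in both lines, and the distances use these same levels. A gene so chosen lies where genes are few, so nothing is read from the number of its neighbours. Likeness was measured as the distance between the pairs of log2 differences from the control, over 8163 other genes that averaged at least 5 FPKM. The nearest 5 genes were BPIFB2, AFP, APOM, TTR and FGA, at distances of 0.63, 1.02, 1.09, 1.09 and 1.39, and 0 genes lay within 0.5. BPIFB2 was at 2.08 FPKM in sh#7, 24.5 FPKM in sh#2 and 98.5 FPKM in the control. AFP, the fetal liver plasma protein, was at 15.7, 294 and 961 FPKM, the apolipoprotein gene APOM at 8.70, 41.5 and 140.2 FPKM and TTR, the plasma carrier of thyroid hormone and retinol, at 3.43, 26.6 and 61.1 FPKM. FGA, a fibrinogen chain gene, is near FABP1 through sh#7 alone, since at 219 FPKM in sh#2 it lay within 2-fold of the 259.7 FPKM of the control, with 3.96 FPKM in sh#7. For MTTP, 4 genes lay within 0.5, and the nearest 3 were A1BG, IGF2 and UGT2B10 at distances of 0.16, 0.31 and 0.39. A1BG was at 0.758 FPKM in sh#7, 10.5 FPKM in sh#2 and 9.98 FPKM in the control. IGF2 was at 291, 1914 and 2138 FPKM and UGT2B10 at 2.71, 17.3 and 23.8 FPKM. FABP5, SCP2 and DBI lie in the dense part of the plot, with 3382, 5847 and 4238 genes within 0.5. Their nearest genes were RAD51C, ZBTB33 and PNO1 for FABP5, TUBG1, ZNF622 and PACSIN3 for SCP2, and PBK, ARID3A and FRG1 for DBI.

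**Figure D4:**
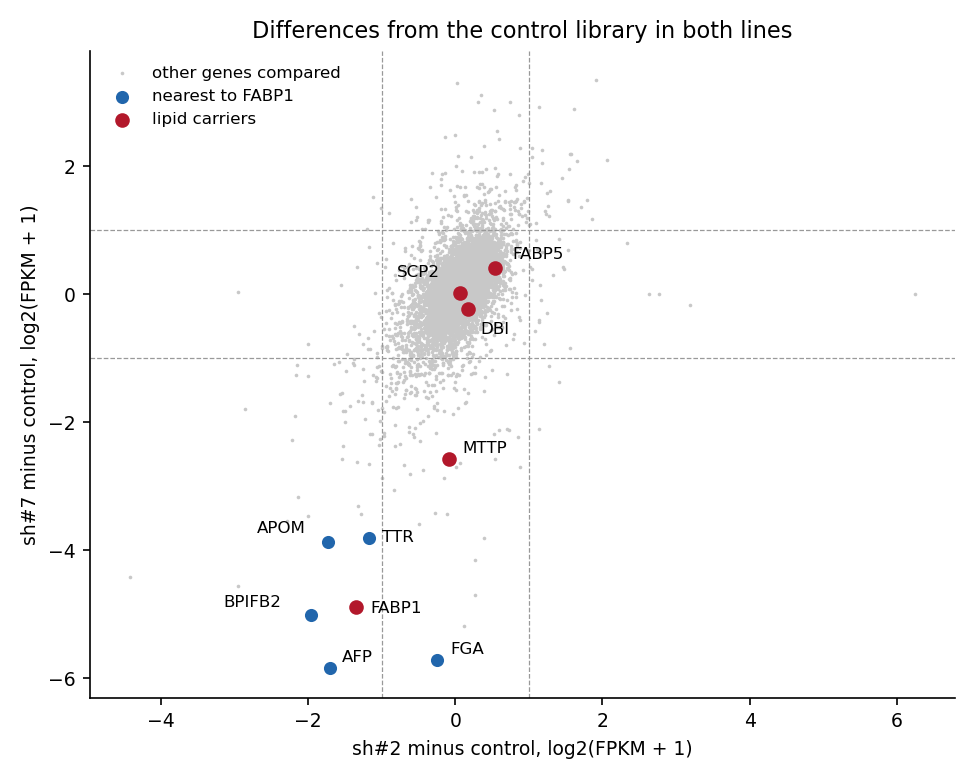
Difference from the control in sh#7 (vertical) against that in sh#2 (horizontal) on the log2(FPKM + 1) scale, with 1 grey point per gene compared, the 5 carriers in red, the 5 genes nearest FABP1 in blue and dashed lines at 2-fold. Both axes use the same control library. FABP1, at -4.88 and -1.35, lies in the sparse lower left with BPIFB2, AFP, APOM and TTR, and MTTP lies straight below the centre.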

How the data were processed

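The authors deposited FPKM values by gene symbol for the 3 libraries. The submitters' processing notes name Cufflinks 2.2.1, HTSeq, STAR 2.4.0j and build hg19, without their roles. Depth is not stated. Low values step by single fragments, and with transcript lengths from GENCODE 29 these steps put it at about 46.3 M fragments in sh#7, 47.5 M in sh#2 and 46.6 M in the control (M: 1e6). No count model was applied to FPKM. Differences are of log2(FPKM + 1), which understates changes of low genes, over genes averaging at least 1 FPKM. A gene was called at 2-fold; this is a size and not a test. The 95% intervals are exact binomial (Clopper-Pearson) intervals on estimated fragments.

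Members and lists were chosen with earlier results of these data known. The genes named were FTO, the members, all genes of the binding protein family, in each other list up to 6 genes past 2-fold or the 3 highest where fewer than 3 passed, APOB, P4HB, PPARA and HNF4A, and the genes of nearest pattern. A few items of these lists are not reported here and were left out of the list counts. ALB, VIL1, the other markers named, ACOX2, BAAT, GRAMD1A, ACSL3, CD36, GATA6 and PPARGC1A were chosen after their values were seen. Promoters came from RefSeq on GRCh38.p14 and were not joined to hg19 coordinates. Calculations used Python 3.11.15 with pandas 2.3.3 and SciPy 1.17.1 and were tested on simulated data. Alternatives were another pseudocount, filter, fold threshold and scaling.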

Additional observations from a re-analysis of the deposited data

Results flagged for a closer look

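As deposited, DBI lay on opposite sides of the control in the 2 lines beyond counting error, with differences of -0.23 in sh#7 and 0.18 in sh#2. It kept those directions with median-of-ratios and upper-quartile scaling, where the sh#2 difference fell to 0.058 and 0.075. The difference between the lines was not tested. The PPARA target CPT1A was past 2-fold from the control in opposite directions. It differed by 1.02 in sh#7 and by -1.21 in sh#2, with 14.3 FPKM in sh#7, 2.27 FPKM in sh#2 and 6.54 FPKM in the control, and this too was not tested. With median-of-ratios and upper-quartile scaling the sh#7 difference was 0.866 and 0.921, inside 2-fold.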

How the results depend on the processing

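No paired analysis was possible because each line gave 1 library, and for the same reason no replicate could be left out. The member differences past 2-fold, 15 values over 3 settings, kept their direction and stayed past 2-fold with a pseudocount of 0.1, median-of-ratios scaling or upper-quartile scaling, and the 30 values of those within 2-fold stayed within it, 4 of them, all of SCP2, with a change of sign. With median-of-ratios scaling the sh#7 differences from the control were -5.06 for FABP1, 0.24 for FABP5, -0.16 for SCP2 and -0.40 for DBI. In the same setting the sh#2 differences were -1.47, -0.055 and 0.058 for FABP1, SCP2 and DBI, and those of sh#7 from sh#2 were -3.59 for FABP1 and -0.46 for DBI. With upper-quartile scaling they were -5.00, -0.10 and -0.34 for FABP1, SCP2 and DBI in sh#7 and -1.45, -0.037 and 0.075 in sh#2. These scalings bring the median of all genes closer to 0, which shifts every difference. With a pseudocount of 0.1 MTTP differed by -3.04 in sh#7 against the control and by -2.96 against sh#2, since its sh#7 level is low. Counts over all genes past 2-fold with that pseudocount were 394 higher in sh#7, 106 higher and 138 lower in sh#2, and 252 higher in sh#7 than in sh#2. With genes averaging at least 5 FPKM, where fewer genes were compared, they were 146, 24, 49 and 82. At 1.5-fold sh#7 had 1064 higher and 684 lower genes, sh#2 had 295 and 301, and sh#7 against sh#2 had 569 and 504. Over the listed genes that are not members, the pseudocount of 0.1 gave 8 lower in sh#7, 5 higher in sh#2 and 5 higher in sh#7 than in sh#2, the minimum of 5 FPKM gave 1 higher in sh#2 and 2 lower in sh#7 than in sh#2, and median-of-ratios and upper-quartile scaling gave 10 and 8 lower in sh#7. At 1.5-fold, sh#7 had 10 higher and 17 lower listed genes, sh#2 had 8 and 8, and sh#7 against sh#2 had 8 and 12. Of 100 list medians relative to all genes, 15 moved by more than 0.1, most of them with no filter on low values. The 5 genes nearest FABP1 were kept under 3 of 4 alternatives, and 4 of them with a pseudocount of 0.1. A share of total FPKM taken without the 100 highest genes was larger by construction.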
